A study of Mus musculus with 48 samples.

Results

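Hepatocytes around the central vein carry a set of genes that depend on Wnt signaling, and 10 of them, chosen by name, were followed through the livers of 48 FCG mice, in which the kind of gonad and the sex chromosomes are inherited apart, on a high-fat diet (HFD). The 10 genes were Glul, Oat, Rhbg, Slc1a2, Axin2, Lgr5, Tbx3, Rnf43, Nkd1 and Lhpp. Of the 55414 gene rows of the count table, 9 were matched to a gene of this set through the table of gene names. Rhbg, an ammonium transporter, was not matched and is not analysed here. All 9 matched genes passed the filter on low counts, and the lowest value of any of them in any mouse was 56 reads, for Nkd1.

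RNA of whole liver was sequenced in 8 groups of 6 mice. The genotypes were XX and XY-, which have ovaries (XX Ov and XY Ov), and XX;SryTg and XY-;SryTg, which have testes (XX Te and XY Te). In FCG mice, on a C57BL/6 background, the testis-determining gene Sry is missing from the Y chromosome and SryTg is an Sry transgene on an autosome. Mice of each genotype had intact gonads or were gonadectomized (GDX) at 75 days of age, and all were fed a diet with 60% of calories from fat. By the labels, HFD began at 15 to 17 weeks of age and lasted 11 weeks in intact and 15 weeks in GDX mice, so removal of the gonads cannot be told apart from a longer diet and a greater age. The study's methods give other lengths of the diet, again longer for GDX mice. Every group was on HFD, and no chow-fed mice are analysed here.

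Liver metabolism is divided along the axis from the portal triad to the central vein. Endothelial cells of the central vein release Wnt ligands and R-spondin, which stabilize β-catenin in the nearest hepatocytes and switch on genes through TCF/LEF factors. Some of these genes serve nitrogen metabolism, above all the capture of ammonia in glutamine, and others feed back on the pathway. In bulk RNA, fewer cells that express a gene and less RNA of it per cell cannot be told apart.

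Promoter stretches are shown for 3 genes, which the results return to: Slc1a2, the glutamate transporter that rose after removal of either gonad, Glul, the glutamine synthetase, and Axin2, the usual readout of Wnt signaling. RefSeq promoter entries (GRCm38.p6) were found for 6 of the 10 genes, namely Glul, Slc1a2, Oat, Nkd1, Axin2 and, with 2 entries, Rnf43. Each window of 300 bases was searched on both strands for the TCF/LEF motifs CTTTGAT and CTTTGAA, which share the core CTTTGA and so cannot both match at one place. Shown are the 250 bases before the start, on the + strand, at chr2:102706188-102706437 (Slc1a2), chr1:153899679-153899928 (Glul) and chr11:108920099-108920348 (Axin2), with a motif match in capitals.
Slc1a2: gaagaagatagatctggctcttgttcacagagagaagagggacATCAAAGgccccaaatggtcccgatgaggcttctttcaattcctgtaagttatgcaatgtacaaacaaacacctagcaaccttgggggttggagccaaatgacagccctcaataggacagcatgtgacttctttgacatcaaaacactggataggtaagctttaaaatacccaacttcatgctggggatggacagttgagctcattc
Glul: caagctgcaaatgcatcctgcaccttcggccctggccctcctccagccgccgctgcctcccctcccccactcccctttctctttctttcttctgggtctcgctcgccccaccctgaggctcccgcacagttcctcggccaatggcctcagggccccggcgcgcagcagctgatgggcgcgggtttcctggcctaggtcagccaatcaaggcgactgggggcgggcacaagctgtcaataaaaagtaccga
Axin2: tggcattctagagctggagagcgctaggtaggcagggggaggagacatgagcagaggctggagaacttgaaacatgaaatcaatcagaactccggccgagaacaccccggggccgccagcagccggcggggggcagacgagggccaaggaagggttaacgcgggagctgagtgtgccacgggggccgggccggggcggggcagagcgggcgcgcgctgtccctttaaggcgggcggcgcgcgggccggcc
Of the 7 windows, that of Slc1a2 alone held a match, CTTTGAT on the opposite strand at position -207 from the start. Over all 32851 RefSeq windows, 3.73% held CTTTGAT, 5.14% held CTTTGAA and 8.65% held either one. The other 6 windows hold neither of these letter strings, and they cover only the bases next to a start.

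The depth per mouse, as reads in gene rows, lay between 13071874 and 20045141 (median 16577748), so that 3 reads equal 0.150 to 0.230 CPM (counts per 1000000 reads). Levels are CPM scaled by TMM, edgeR's correction for RNA composition. Xist and 4 Y-linked genes separated all XX from all XY libraries. Reads counted as falling on no annotated gene feature made up 3.47 to 6.20% in intact and 8.52 to 11.3% in GDX mice, without overlap. Reads that aligned to several places made up 10.7 to 18.9% in intact and 8.59 to 10.8% in GDX mice. The part of these differences in the results was not tested. The hepatocyte markers Alb, Apoa1, Ttr, Tat and Cyp2e1 summed to 62946 to 143409 CPM in intact and 71533 to 109919 CPM in GDX mice. Differences were tested in edgeR's quasi-likelihood model over all 48 mice and called at a Benjamini-Hochberg adjusted p under 0.05 among 15414 tested genes. Log2 fold changes are given ± SE. The model gave each gene a single spread shared by all 8 groups, although intact mice of a group mostly lay further apart than GDX mice. Its SEs may therefore be too wide for comparisons among GDX mice and too narrow among intact mice.

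Per length of exons, the enzymes of nitrogen metabolism stood far above the rest. Oat, which transfers the amino group of ornithine, had a median level of 399 CPM per 1000 bases (RPKM; 157 to 677 over 48 mice), and Glul had 397 RPKM (163 to 642). Their order was not settled, since Oat was above Glul in 22 of 48 mice. Lhpp, a phosphatase, followed with a median of 26.2 RPKM, and Slc1a2 with 21.97 RPKM; Lhpp was the higher of this pair in 39 mice. The transcription factor Tbx3 had a median of 8.67 RPKM, and Rnf43, a ubiquitin ligase that removes Wnt receptors, had 4.70 RPKM. Lowest were Axin2, a scaffold of the complex that destroys β-catenin, with 1.61 RPKM, Nkd1, an inhibitor that binds Dishevelled, with 1.43 RPKM, and Lgr5, an R-spondin receptor, with 0.987 RPKM. The ranges of Glul and Lhpp, and of Rnf43 and Axin2, did not overlap, and those of the other neighbours in the order did. This order depends on the exon lengths used, which cover all annotated transcripts of a gene. In CPM the median of Lgr5 (10.1) was above those of Axin2 (8.87) and Nkd1 (6.36), and that of Slc1a2 (289) above that of Lhpp (54.7).

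**Figure D1:**
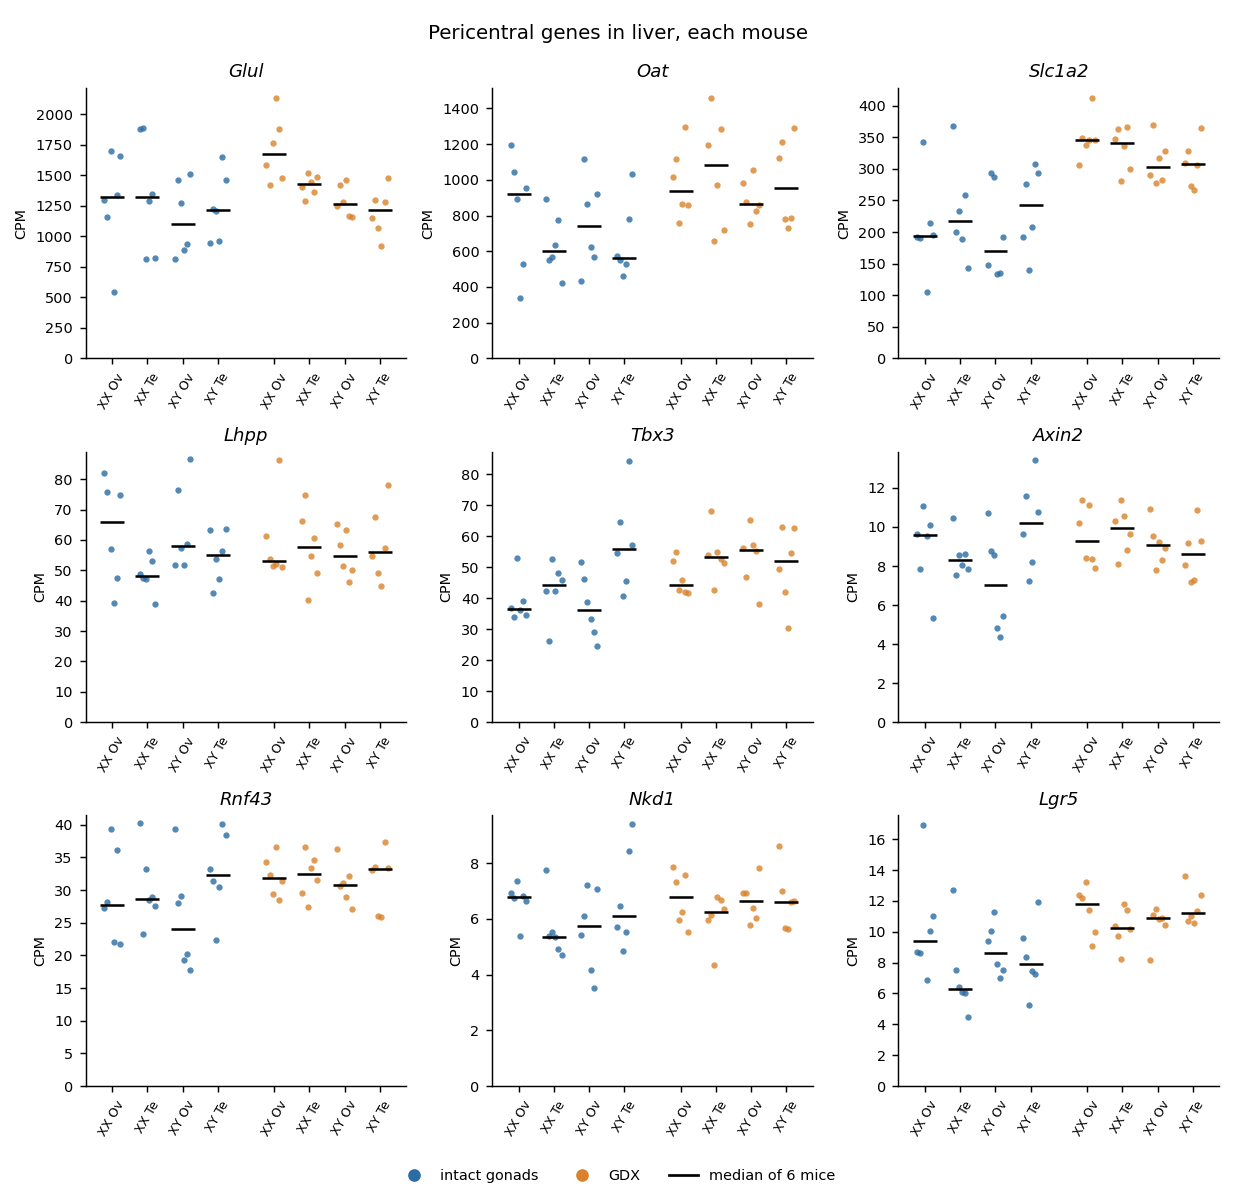
CPM of the 9 genes (y axis, from 0) in each mouse by genotype (x axis), with intact mice in blue, GDX mice in orange and the median of 6 mice as a line. The medians of Slc1a2, Oat, Lgr5 and Rnf43 were higher in GDX than in intact mice in 4 of 4 genotypes, with ranges of intact and GDX mice that overlapped in each genotype for each of these genes.

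GDX was compared with intact mice to ask how the genes stand once ovaries or testes are removed. Slc1a2 was higher after removal of either gonad, and was the only one of the 9 genes called in both comparisons with TMM scaling, while on library totals Oat and Lgr5 were also called in both. In XX Ov mice it had 105 to 343 CPM (median 194) when intact and 307 to 413 CPM (median 346) after GDX. In XY Ov mice it had 133 to 294 CPM (median 170.0) and 277 to 370.2 CPM (median 304). Of the intact mice, 1 XX Ov and 2 XY Ov mice reached the range of their GDX group, and the others lay below it. In XX Te mice the level was 144 to 368 CPM (median 217) intact and 281 to 367 CPM (median 342) after GDX. In XY Te mice it was 141 to 308 CPM (median 242) and 266 to 365 CPM (median 307). Here 1 XX Te and 3 XY Te intact mice reached the levels of their GDX group, and over all genotypes 17 of 24 intact mice were below every GDX mouse. The log2 fold change was 0.71 ± 0.15 for ovariectomy (1.63-fold, adjusted p = 4.72e-05) and 0.45 ± 0.15 for castration (1.364-fold, adjusted p = 0.00716).

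After ovariectomy 2 of the 9 genes were called higher and none lower, where 69.4% of all tested genes were called, 36.0% as higher and 33.4% as lower. After castration 3 were called higher and none lower, where 63.3% of all tested genes were called, 33.4% as higher and 29.9% as lower. The median log2 change of the 9 genes was 0.22 after ovariectomy and 0.07 after castration, beside 0.06 and 0.07 over all tested genes. Their median absolute log2 change was 0.22 and 0.07, beside 0.47 and 0.40. With library totals in place of TMM the median of all genes moved up by 0.21 after ovariectomy and 0.20 after castration, 8 and 4 of the 9 genes were called higher, and higher calls made up 66.1% in place of 51.9%, and 69.5% in place of 52.7%, of all calls. Without the 3 libraries farthest from their groups 4 and 3 genes were called, and leaving out single mice gave 2 to 5 calls after ovariectomy, with 5 without replicate 3 of the XX Ov intact group, and 3 in every case after castration.

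Single hepatocyte markers moved with GDX, although their sums overlapped. After ovariectomy Ttr (-0.99 ± 0.11) and Alb (-0.29 ± 0.10) were called lower and Cyp2e1 (0.31 ± 0.12) higher on the log2 scale. The Alb call was lost on library totals. Markers of other liver cells also moved with GDX. The 4 central vein endothelial markers, Wnt2, Wnt9b, Rspo3 and Thbd, summed to 10.6 to 24.6 CPM in intact and 7.55 to 18.95 CPM in GDX mice, and 2 were called lower after removal of either gonad, or 1 on library totals. The 4 stellate and fibroblast markers summed to 39.3 to 146 and 46.5 to 301 CPM, with 3 called higher in both comparisons. The 2 neutrophil markers summed to 1.43 to 767 and 0.0787 to 63.6 CPM, with both called lower. The sums were 141 to 638 and 87.1 to 383 CPM for 4 macrophage markers, 131 to 237 and 120.2 to 319.6 CPM for 5 sinusoidal endothelial markers, and 1.66 to 9.05 and 3.46 to 9.83 CPM for 4 cholangiocyte markers. On library totals 2 macrophage markers were called lower and none higher after ovariectomy, and 2 higher and none lower after castration. Of the sinusoidal markers 1 was called higher and 1 lower after ovariectomy, and 2 and 1 after castration. Of the cholangiocyte markers 3 and 2 were called higher and none lower. Of 15414 tested genes 7362 were called higher and 3768 lower after ovariectomy on this scale, and 7306 and 3208 after castration. No marker was at 0 in every mouse. The part of these cells in the differences of the 9 genes was not tested.

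Oat was called after castration. Intact XX Te mice had 421 to 892 CPM (median 599.9) and GDX XX Te mice 655 to 1459.7 CPM (median 1083). Intact XY Te mice had 460.4 to 1033 CPM (median 562) and GDX XY Te mice 729.9 to 1293 CPM (median 954). Of 12 intact mice with testes 8 were below every castrated mouse, and 6 of 12 castrated mice were above every intact one. The log2 fold change was 0.65 ± 0.17 (1.57-fold, adjusted p = 0.00108). With ovaries Oat spread over 339 to 1195 CPM (median 878) in intact and 751 to 1298 CPM (median 869) in GDX mice, and the log2 difference of 0.25 (95% interval -0.10 to 0.59) was not called.

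Glul was not called in any comparison. Intact XX Ov mice had 542 to 1698 CPM (median 1320.1) and GDX XX Ov mice 1421 to 2139 CPM (median 1674). Intact XY Ov mice had 815 to 1513 CPM (median 1106) and GDX XY Ov mice 1161 to 1461 CPM (median 1262). Medians were higher after ovariectomy in both genotypes, with overlapping ranges. The log2 difference was 0.29 ± 0.14 (adjusted p = 0.0604), and it was called under 4 of 10 other settings and when any of 5 single mice was left out. After castration it was 0.01 (interval -0.27 to 0.30). Lhpp, the chromosomal neighbour of Oat, had medians of 58.1 CPM in intact and 52.9 CPM in GDX mice with ovaries, and of 50.9 CPM and 56.1 CPM with testes. The log2 differences of -0.14 (interval -0.37 to 0.10) and 0.18 (interval -0.06 to 0.41) were not called. On library totals and with 1 surrogate variable Lhpp was called after castration.

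Among the genes of the pathway itself, Lgr5 was called after castration. In XX Te mice it had 4.50 to 12.7 CPM (median 6.27) intact and 8.26 to 11.8 CPM (median 10.3) after GDX. In XY Te mice it had 5.26 to 11.9 CPM (median 7.90) and 10.5 to 13.6 CPM (median 11.2). In each genotype 5 of 6 intact mice were below all their GDX counterparts. The log2 fold change was 0.50 ± 0.13 (1.41-fold, adjusted p = 0.00102). In mice with ovaries the medians were 9.04 CPM intact and 10.98 CPM after GDX, a log2 difference of 0.19 (interval -0.07 to 0.44) that was not called.

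Tbx3 was called after ovariectomy. It had 34.03 to 52.9 CPM (median 36.5) in intact and 41.6 to 54.96 CPM (median 44.3) in GDX XX Ov mice. In XY Ov mice it had 24.5 to 51.7 CPM (median 36.1) and 38.1 to 65.4 CPM (median 55.6). Over both genotypes 7 of 12 intact mice were below every GDX mouse, and 5 of 12 GDX mice were above every intact one. The log2 fold change was 0.38 ± 0.12 (1.30-fold, adjusted p = 0.00602), and the call was lost with 1 surrogate variable in the model (0.27, adjusted p = 0.0772). After castration the Tbx3 difference was 0.07 (interval -0.18 to 0.31).

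Axin2, Rnf43 and Nkd1, which feed back on the pathway as inhibitors, were not called after removal of either gonad with TMM scaling. On library totals all 3 were called higher after ovariectomy. Axin2 and Rnf43 were also called after ovariectomy with at least 10 counts in every mouse, and Rnf43 with limma-voom. Axin2 had 4.35 to 13.4 CPM (median 8.59) in intact and 7.18 to 11.4 CPM (median 9.21) in GDX mice. Rnf43 had 17.8 to 40.3 CPM (median 28.7) and 25.8 to 37.4 CPM (median 31.8). Nkd1 had 3.53 to 9.42 CPM (median 5.91) and 4.34 to 8.63 CPM (median 6.49). In all 3 genes the GDX mice lay within the range of the intact ones. After ovariectomy the log2 differences were 0.22 for Axin2 (interval -0.02 to 0.46), 0.21 for Rnf43 (-0.01 to 0.43) and 0.14 for Nkd1 (-0.08 to 0.36). After castration they were -0.02 (-0.26 to 0.22), 0.02 (-0.20 to 0.24) and 0.05 (-0.18 to 0.27).

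The difference of the castration and ovariectomy effects was tested directly. None of the 9 genes was called, where 5.6% of all tested genes were; edgeR gave 0 at an unadjusted p under 0.05, and DESeq2 and limma-voom called 0. On the log2 scale the castration effect minus the ovariectomy effect was 0.40 ± 0.24 for Oat (adjusted p = 0.298), 0.31 ± 0.18 for Lgr5 (adjusted p = 0.292) and 0.31 ± 0.16 for Lhpp (adjusted p = 0.243). It was -0.32 ± 0.17 for Tbx3 (adjusted p = 0.262) and -0.26 ± 0.21 for Slc1a2 (adjusted p = 0.438). Oat, Lgr5 and Tbx3 were thus called for one kind of gonad with TMM scaling, without a called difference between the kinds, and on library totals Oat and Lgr5 were called for both.

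**Figure D2:**
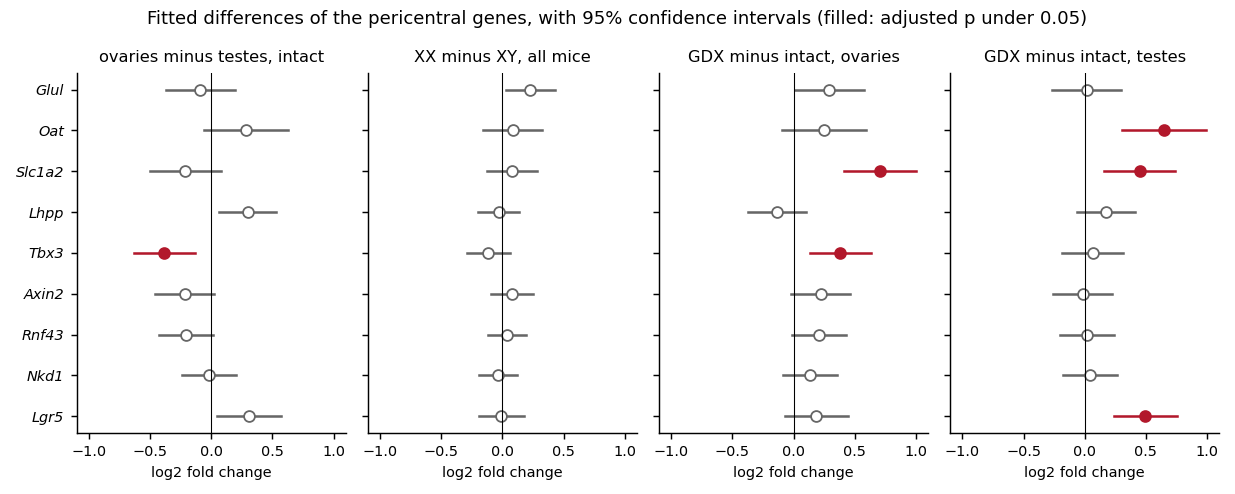
Fitted log2 fold changes (x axis) of the 9 genes with 95% confidence intervals in 4 comparisons, with filled red points for an adjusted p under 0.05. The red points are Tbx3 between intact ovaries and testes, Slc1a2 and Tbx3 after ovariectomy, and Oat, Slc1a2 and Lgr5 after castration.

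Intact mice with ovaries were compared with intact mice with testes to read the gonad in place. Tbx3 was lower with ovaries. It had 24.5 to 52.9 CPM (median 36.5) in 12 mice with ovaries and 26.1 to 84.3 CPM (median 46.97) in 12 mice with testes. The ranges overlapped, and 4 mice with testes, all of them XY Te, were above every mouse with ovaries. The medians were 36.5 CPM in XX Ov and 44.2 CPM in XX Te mice, and 36.1 CPM in XY Ov and 55.8 CPM in XY Te mice. Whether the gonadal difference depended on the sex chromosomes was not tested. Over both the log2 fold change was -0.38 ± 0.12 (0.766-fold, adjusted p = 0.0198). It was the only gene of the 9 to be called, where 25.3% of all tested genes were, and the call was lost under 3 other settings and without replicate 5 of the XY Te intact group (-0.31, adjusted p = 0.0565), 1 of the 3 libraries farthest from their group; without all 3 it was called. In the same comparison 3 of 4 macrophage markers were called higher with ovaries (1 of 4 on library totals), with a median log2 change of 0.59, and their part in the Tbx3 difference was not tested.

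Lgr5 and Lhpp had higher levels with ovaries that missed the threshold. Lgr5 had 6.88 to 16.9 CPM (median 9.04) with ovaries and 4.50 to 12.7 CPM (median 7.36) with testes, a log2 difference of 0.31 ± 0.13 (adjusted p = 0.0712). Lhpp had 39.1 to 86.7 CPM (median 58.1) and 38.9 to 63.6 CPM (median 50.9), a log2 difference of 0.30 ± 0.12 (adjusted p = 0.0552). Ranges overlapped in both, with 5 mice with ovaries above all mice with testes for Lhpp and 1 for Lgr5. Lhpp was called when any of 10 single mice was left out and Lgr5 when any of 3 was. The other 6 genes differed by -0.22 (Axin2) to 0.29 (Oat) on the log2 scale. In GDX mice the former gonad gave no called difference in the 9 genes, where 0.0908% of all tested genes were called; edgeR gave 0 at an unadjusted p under 0.05, DESeq2 and limma-voom called 0, and the log2 differences ran from -0.12 (Oat) to 0.19 (Glul).

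The sex chromosomes were compared as XX minus XY. Over all 48 mice none of the 9 genes was called by edgeR, DESeq2 or limma-voom, where 36.7% of all tested genes were called by edgeR, and 1 had an unadjusted p under 0.05. This was Glul, with a log2 difference of 0.23 ± 0.10 (adjusted p = 0.0637), which was called when any of 6 single mice was left out. In GDX mice Glul had 1288 to 2139 CPM (median 1479.8) in XX and 921 to 1483 CPM (median 1262) in XY. Of 12 XX mice 6 were above every XY mouse, and 8 of 12 XY mice were below every XX mouse. The log2 difference in GDX mice was 0.32 ± 0.14 (adjusted p = 0.0673), where 34.3% of all tested genes were called; edgeR and DESeq2 called 0 of the 9 genes, 1 had an unadjusted p under 0.05, and limma-voom and a fit of the GDX mice alone called 1, Glul. On library totals, which moved the median of all genes by -0.18 in this comparison, the Glul difference was 0.15.

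In intact mice the Glul difference was 0.13 (interval -0.15 to 0.42). None of the 9 genes was called there, where 10.7% of all tested genes were; 0 had an unadjusted p under 0.05 in edgeR, and DESeq2 and limma-voom called 0. For the interaction of sex chromosomes with GDX the counts were also 0 by all 3 tools and 0 at an unadjusted p under 0.05, where 2.12% of all tested genes were called, and the value for Glul was 0.19 ± 0.20 (adjusted p = 0.694). For the other 8 genes the XX minus XY difference over all mice ran from -0.12 (Tbx3) to 0.08 (Oat). Markers of immune cells also differed in this comparison: the 2 neutrophil markers summed to 1.43 to 27.5 CPM in XX and 4.29 to 767 CPM in XY intact mice, and to 0.0787 to 1.85 and 1.09 to 63.6 CPM in GDX mice, with both called lower in XX (median log2 difference -3.81), and 3 of 4 macrophage markers were called lower, or 4 on library totals. The endothelial markers Pecam1 and Thbd were lower in XX by log2 changes of -1.31 ± 0.12 (adjusted p = 8.22e-13) and -0.88 ± 0.13 (adjusted p = 3.90e-07). With TMM scaling the sinusoidal markers Kdr and Lyve1 were not called, and 2275 of 15414 tested genes were called lower. On library totals 3 of 5 sinusoidal and 2 of 4 central vein endothelial markers were called lower and none higher, beside 3083 of 15414 tested genes lower. The part of these cells in the values of the 9 genes was not tested.

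Mice of one group lay further apart when intact. The within-group SD of log2 CPM was larger in intact than in GDX mice for 9 of 9 genes and for 88.4% of all tested genes. Slc1a2 differed most, with an SD of 0.49 in intact and 0.16 in GDX mice, a ratio of 3.18. Glul had 0.48 and 0.18, a ratio of 2.57, and Lhpp had 0.30 and 0.28, a ratio of 1.07. Over all tested genes the medians were 0.39 and 0.21, and the median ratio was 1.56. Lgr5, Rnf43 and Axin2 were above that ratio beside Slc1a2 and Glul, and Oat, Nkd1, Tbx3 and Lhpp were below it. The wider spread of intact mice was thus no property of these genes alone.

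**Figure D3:**
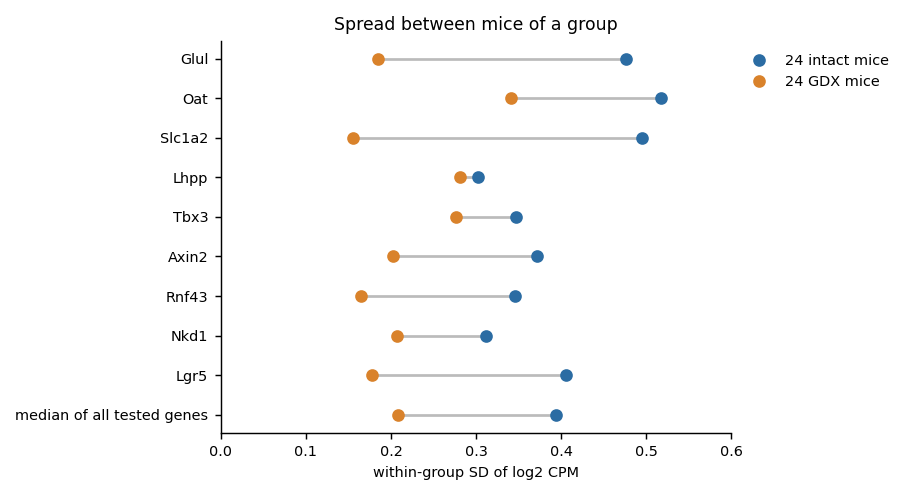
SD of log2 CPM between mice of a group (x axis), pooled over the 4 intact groups (blue) and the 4 GDX groups (orange), for the 9 genes and as the median of all 15414 tested genes. The intact point lies to the right in every gene, by a ratio of 1.07 in Lhpp to 3.18 in Slc1a2.

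The spread between mice of a group was used to see which of the 9 genes move together. The group mean was subtracted from log2 CPM, and correlations over 48 mice were computed for all 36 pairs, with p-values from 100000 permutations of mice within groups, adjusted over the 36 pairs. Pearson's r was positive in 35 pairs, 23 of them with an adjusted p under 0.05, and its median was 0.45. The genes of a pair come from the same libraries and share their scaling. The share of pairs of other tested genes that would pass was not computed, so the count does not set these genes apart.

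Oat and Lhpp were the closest pair, with r = 0.82 (permutation, adjusted p = 9e-05, from 1e-05, the smallest p the permutations can give) and Spearman's rho = 0.83 (adjusted p = 7.2e-05). Without the 2 mice farthest out in Oat r was 0.80, and it was 0.81 in intact and 0.87 in GDX mice. In the NCBIM37 annotation Oat lies at chr7:139749158-139768081 on the - strand and Lhpp at chr7:139802321-139898103 on the + strand, with 34239 bases and 1 other protein-coding gene between them. Glul and Slc1a2 had r = 0.69 (permutation, adjusted p = 0.00064) and rho = 0.61 (adjusted p = 0.00054), or r = 0.66 without the 2 farthest mice. Within cohorts r was 0.72 in intact and 0.42 in GDX mice (adjusted p = 0.207 in the latter). Oat and Slc1a2 had r = 0.71 (permutation, adjusted p = 9e-05) and rho = 0.68 (adjusted p = 7.2e-05), with 0.64 without the 2 farthest mice, 0.74 in intact and 0.73 in GDX mice.

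Axin2 and Rnf43 had r = 0.75 (permutation, adjusted p = 0.00012) and rho = 0.69 (adjusted p = 0.0003), or r = 0.69 without the 2 farthest mice, 0.84 in intact and 0.42 in GDX mice (adjusted p = 0.207 in the latter). Tbx3 and Rnf43 had r = 0.74 (permutation, adjusted p = 9e-05) and rho = 0.73 (adjusted p = 7.2e-05), or r = 0.73 without the 2 farthest mice, 0.78 in intact and 0.72 in GDX mice. The best known pericentral enzyme and the usual Wnt readout were not closely tied over all 48 mice: Glul and Axin2 had r = 0.15 (permutation, adjusted p = 0.49) and rho = 0.32 (adjusted p = 0.0797), or r = 0.23 without the 2 farthest mice, 0.09 in intact and 0.44 in GDX mice. In GDX mice this r was near that of Axin2 and Rnf43 (0.42). Of the 36 pairs 21 passed in intact and 7 in GDX mice, and a difference between the cohorts was not tested.

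**Figure D4:**
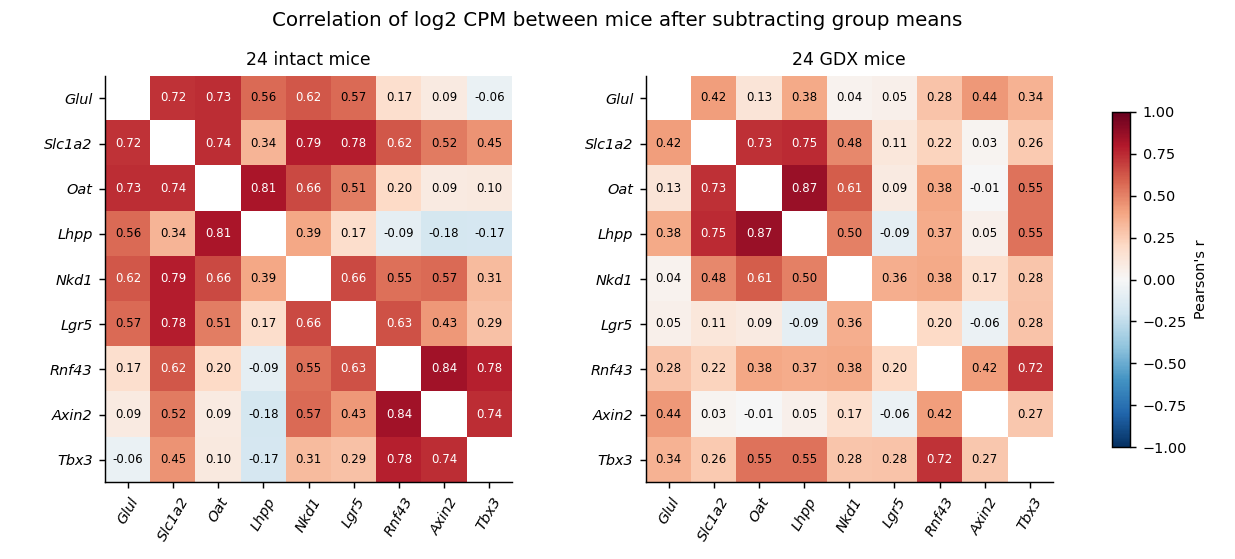
Pearson's r between mice for each pair of the 9 genes, after subtracting group means from log2 CPM, in 24 intact (left) and 24 GDX (right) mice, on a colour scale from -1 (blue) to 1 (red). Oat with Lhpp (0.81 and 0.87) and Tbx3 with Rnf43 (0.78 and 0.72) had a high r in both cohorts.

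The 15413 other tested genes were ranked by the same r to Glul and to Axin2, as a description. The gene most like Glul was Slc22a3, an organic cation transporter, with r = 0.78 (0.82 in intact and 0.54 in GDX mice). Slc1a2 was second with r = 0.69 and was followed by Slc13a3, a dicarboxylate transporter, with r = 0.66. The carboxylesterase Ces2c (0.65) and ENSMUSG00000102252 (0.64), which has no symbol in the name table, came next. Of the other genes of the set, Oat ranked 15, Lgr5 73, Nkd1 79 and Lhpp 90, while Rnf43 ranked 2282, Axin2 3127 and Tbx3 6816.

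The genes most like Axin2 were none of the listed pericentral genes. They were Smg5, a factor of nonsense-mediated decay, with r = 0.80 (0.89 in intact and 0.49 in GDX mice), Fbxw5 (0.79), Fam40a (0.79), the Mediator subunit Med24 (0.78) and the importin Kpna6 (0.78). Rnf43 ranked 36 with r = 0.75 and Tbx3 1368 with r = 0.59. An r of 0.44 to Axin2 placed Slc1a2 at rank 3005, whereas an r of 0.49 to Glul placed Lgr5 at rank 73, so that a middling r was far more common to Axin2 than to Glul.

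Upstream of these genes, Wnt2, a ligand of liver endothelium, was lower after removal of either gonad. It had 3.10 to 10.2 CPM (median 5.82) in intact and 0.879 to 3.40 CPM (median 2.19) in GDX mice with ovaries. With testes it had 2.91 to 8.26 CPM (median 4.96) and 1.14 to 3.90 CPM (median 1.85). The ranges touched only between the lowest intact and the highest GDX mice. The log2 fold change was -1.46 ± 0.21 after ovariectomy (adjusted p = 5.88e-08) and -1.30 ± 0.21 after castration (adjusted p = 1.22e-06). Rspo3, the R-spondin of the central vein, fell by 0.34 ± 0.10 (adjusted p = 0.00365) and 0.32 ± 0.10 (adjusted p = 0.00703) on the log2 scale, but on library totals the values were -0.11 and -0.11 and neither was called. Wls, which carries Wnt proteins to the surface, fell by 0.81 ± 0.15 after ovariectomy (adjusted p = 1.11e-05). Of 8 listed ligands and helpers 6 were tested, and 1 was called higher and 3 lower after ovariectomy (2 and 2 on library totals), and 1 higher and 2 lower after castration (2 and 1). Of all tested genes 69.4% were called after ovariectomy and 63.3% after castration.

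Other ligands differed between XX and XY mice, where 2 of the 6 were called higher and 2 lower, beside 36.7% of all tested genes called. Wnt9b, also a ligand of the central vein, was at 0.208 to 1.85 CPM, or 4 to 37 reads a mouse, and was lower in XX mice by a log2 change of -0.75 ± 0.17 (adjusted p = 0.000478). Wnt4 was higher in XX mice by 0.80 ± 0.16 (adjusted p = 5.01e-05). Wnt5a, which acts mostly outside the β-catenin branch, was higher in XX than in XY GDX mice by 0.98 ± 0.17 (adjusted p = 1.19e-05).

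**Figure D5:**
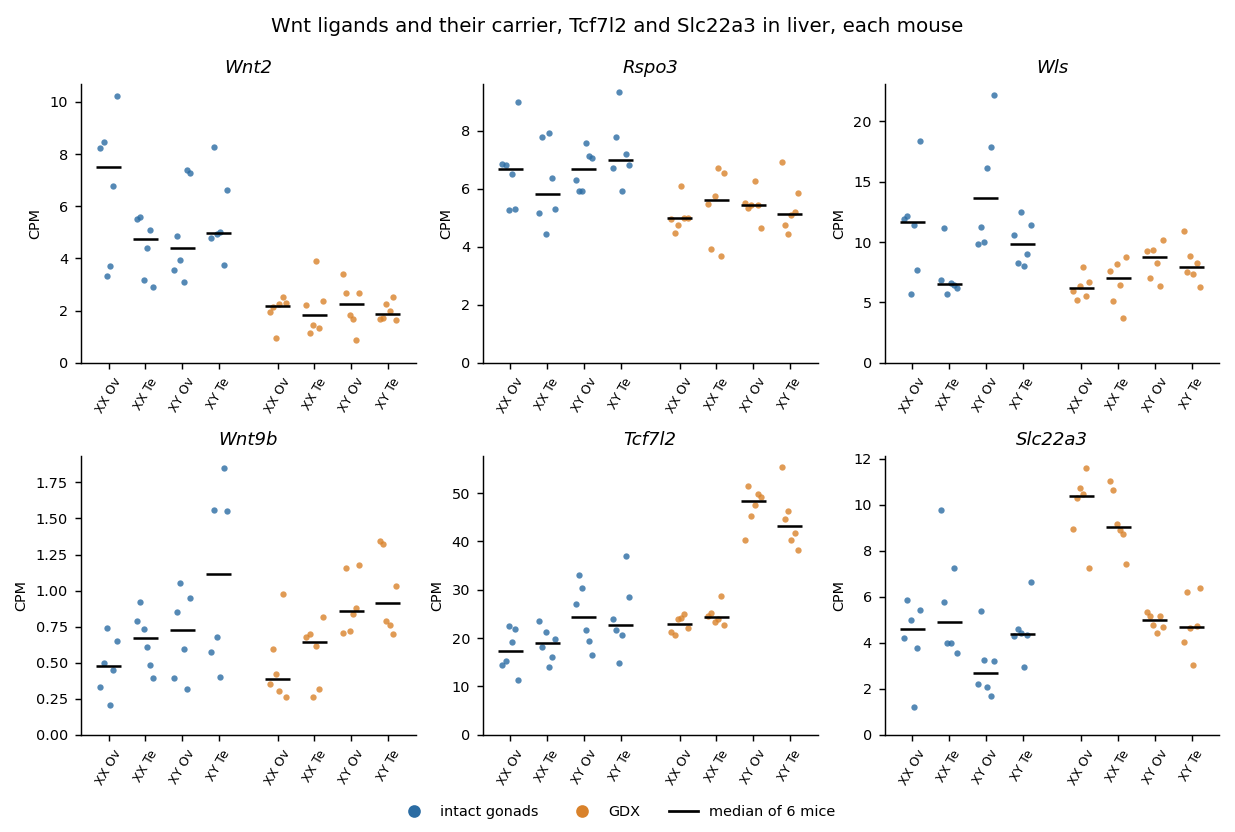
CPM (y axis, from 0) of the ligands Wnt2, Rspo3 and Wnt9b, the carrier Wls, the factor Tcf7l2 and the transporter Slc22a3 in each mouse by genotype (x axis), with intact mice in blue, GDX mice in orange and medians as lines. Wnt2 had a lower median in GDX mice in 4 of 4 genotypes. In GDX mice Tcf7l2 separated XY (38.3 to 55.5 CPM) from XX (20.7 to 28.7 CPM). Slc22a3 also separated XY (3.04 to 6.36 CPM) from XX GDX mice (7.23 to 11.6 CPM).

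The counts of the pathway's gene lists stand beside the share of all tested genes called, which was 36.0% higher and 33.4% lower after ovariectomy, 33.4% and 29.9% after castration, and 21.9% and 14.8% in XX against XY mice. Of 15 listed receptors and genes of their turnover 12 were tested, and after ovariectomy, where 69.4% of all tested genes were called, 9 were called higher and none lower (10 and none on library totals, where higher calls were 66.1% of all calls), with a median log2 change of 0.29, beside 0.06 over all tested genes. The co-receptor Lrp6 rose by 0.71 ± 0.13 (adjusted p = 5.71e-06), and the Frizzled receptors Fzd4 and Fzd8 by 0.56 ± 0.12 (adjusted p = 6.11e-05) and 0.53 ± 0.15 (adjusted p = 0.00198), the latter not with 1 surrogate variable. After castration 3 were called higher and 2 lower, but 7 and none on library totals. All 7 genes for β-catenin and its destruction complex were tested, and 5 of 7 were called after ovariectomy, beside 69.4% of all tested genes, with 5 higher and none lower (7 and none on library totals) and Apc at 0.55 ± 0.14 (adjusted p = 0.000663), the kinase Gsk3b at 0.41 ± 0.09 (adjusted p = 0.000171) and the ubiquitin ligase subunit Btrc at 0.36 ± 0.06 (adjusted p = 4.78e-06). Apc, Gsk3b and Btrc take part in the decay of β-catenin. After castration 2 were called higher and 1 lower, but 4 and none on library totals. Between XX and XY mice Ctnnb1, β-catenin itself, was higher in XX by 0.18 ± 0.04 (adjusted p = 8.01e-05), a call lost on library totals, and Fzd1 by 0.34 ± 0.06 (adjusted p = 8.61e-06). Of the receptors 5 were called higher and none lower in XX, but 1 and 1 on library totals.

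Of the TCF/LEF factors and partners 7 of 8 were tested; 5 were called higher and 1 lower after ovariectomy, where 69.4% of all tested genes were called and 36.0% were higher, and 5 higher and none lower after castration, where 63.3% were called and 33.4% were higher (5 and none, and 6 and none, on library totals). Tcf7l2, a TCF factor of hepatocytes, had 20.7 to 28.7 CPM (median 23.97) in XX and 38.3 to 55.5 CPM (median 45.8) in XY GDX mice. It had 11.3 to 23.6 CPM (median 18.8) in XX and 14.9 to 36.96 CPM (median 22.8) in XY intact mice. For Tcf7l2 the sex chromosomes thus separated the GDX mice without overlap but not the intact ones. The XX minus XY log2 fold change was -0.69 ± 0.08 over all mice (adjusted p = 1.2e-09), -0.95 ± 0.11 in GDX and -0.44 ± 0.11 in intact mice, and the interaction was not called (adjusted p = 0.0765). Slc22a3 was separated in GDX mice too, with 7.23 to 11.6 CPM in XX and 3.04 to 6.36 CPM in XY. In GDX mice 34.3% of all tested genes were called between XX and XY. The share of genes separated without overlap was not computed. The β-catenin partners Bcl9 and Bcl9l rose after ovariectomy by 0.69 ± 0.13 (adjusted p = 1.32e-05) and 0.73 ± 0.15 (adjusted p = 3.97e-05). Pygo1, a partner of Bcl9, was higher with intact ovaries than with testes by 2.22 ± 0.34 (adjusted p = 2.62e-06).

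Of 11 secreted inhibitors only 3 passed the filter. Notum, an enzyme that inactivates Wnt proteins and is also a Wnt target, rose after castration by 0.47 ± 0.13 (adjusted p = 0.00183) on the log2 scale. Dkk3 was higher in XX than in XY GDX mice by 0.60 ± 0.18 (adjusted p = 0.00604), a call lost on library totals. Of 8 other Wnt targets 6 were tested, and 1 was called higher after ovariectomy and 3 after castration, with none lower (4 and 3 on library totals). Sp5, a transcription factor, was lower with intact ovaries than with testes by a log2 change of -0.59 ± 0.19 (adjusted p = 0.019), a call lost without replicate 1 of the XX Te intact group (adjusted p = 0.0552), and the cyclin Ccnd1 was higher by 0.999 ± 0.18 (adjusted p = 3.66e-05). Tnfrsf19 was higher in XX than in XY mice by 0.67 ± 0.13 (adjusted p = 6.88e-05).

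Of pericentral genes outside the set all 11 were tested, and 4 were called higher and 4 lower after ovariectomy (5 and 4 on library totals), and 4 higher and 3 lower after castration (4 and 1). These shares lie near those of all tested genes, 36.0% higher and 33.4% lower after ovariectomy and 33.4% and 29.9% after castration. Slc22a3 rose by 0.98 ± 0.18 after ovariectomy (adjusted p = 6.59e-06) and by 0.40 ± 0.18 after castration (adjusted p = 0.0463), the latter call being lost when any of 21 single mice was left out. Its medians were 4.90 CPM in intact and 9.03 CPM in GDX XX Te mice, and 4.38 and 4.67 CPM in XY Te mice. The castration effect was not tested by genotype. Lect2, a secreted protein, fell by 1.32 ± 0.19 after ovariectomy (adjusted p = 1.06e-07). The vasopressin receptor Avpr1a fell by 0.86 ± 0.16 (adjusted p = 1.16e-05) and Rgn, a lactonase of ascorbate synthesis, by 0.75 ± 0.15 (adjusted p = 1.66e-05). Between XX and XY mice 3 were called higher and 1 lower in XX (1 and 1 on library totals), and Slc22a3 was higher by 0.70 ± 0.13 (adjusted p = 1.5e-05).

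Periportal genes lie at the other end of the axis. Of 15 tested, 9 were called higher and none lower in XX than in XY mice, and 7 and none on library totals, beside 21.9% of all tested genes higher and 14.8% lower (on library totals 1207 genes higher and 3083 lower of 15414). None of the 9 pericentral genes was called on either scale, and the difference between the lists was not tested. The median log2 difference was 0.45 for the periportal and 0.04 for the 9 pericentral genes (0.35 and -0.07 on library totals), beside 0.05 over all tested genes. The apolipoprotein Apoa4 was higher by 1.80 ± 0.25 (adjusted p = 1.42e-07). After ovariectomy 5 were called higher and 2 lower (7 and 1 on library totals), with the cytochrome Cyp2f2 at 0.96 ± 0.14 (adjusted p = 5.64e-08) and the immunoglobulin receptor Pigr at 0.77 ± 0.12 (adjusted p = 4.43e-07). After castration 5 were called higher and 1 lower (6 and none), with the aldehyde dehydrogenase Aldh1b1 at 1.44 ± 0.16 (adjusted p = 1.36e-09).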

How the data were processed

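Liver RNA-seq of 48 mice in 8 groups of 6 was analysed from the read counts per gene that the authors deposited. Per the labels and methods, reads were aligned with STAR 2.7.10a to GRCm39 and counted per gene without further scaling; whether counting used strand is not given in the sources used here. The 4 summary lines (unmapped, multimapping, no feature, ambiguous) were left out of library sizes and tests. Groups were taken from the labels. Symbols came from a name table, which matched 31020 of 55414 rows; exon lengths and gene positions came from an NCBIM37 annotation and promoters from RefSeq (GRCm38.p6), so no position is on the build of the counts.

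Counts were filtered by expression, scaled by TMM and fitted with 8 group means in edgeR 4.0.16 (R 4.3.3), with the robust quasi-likelihood test and Benjamini-Hochberg adjustment over 15414 genes. Comparisons were ovaries minus testes, XX minus XY, GDX minus intact, and differences of these. No pair of libraries in a group agreed within sampling noise. Alternatives were DESeq2 1.42.0, limma-voom (limma 3.58.1), 1 surrogate variable (sva 3.50.0), other scalings and filters, only the groups compared, 47 mice, and each mouse left out. The procedure was tested on simulated data. Correlations used 100000 permutations.

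The genes of the set and the lists were chosen with earlier results of these data known. Of each list, up to 4 genes with the smallest adjusted p in any comparison were named, and for Glul and Axin2 the 5 genes with the highest r. The 3 reads taken as the smallest level shown cover counting error only.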

Additional observations from a re-analysis of the deposited data

Results flagged for a closer look

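Within groups of 6 mice, 8 of 72 gene and group combinations of the 9 genes held a mouse whose gap to its nearest neighbour exceeded Dixon's 95% limit, where chance gives 3.6 (5% of groups). In XX Te intact replicate 1, Axin2 was 10.4 CPM (next 8.60), Lgr5 12.7 CPM (next 7.52) and Nkd1 7.77 CPM (next 5.53), all 3 the highest of their group. Tbx3 was high in XX Ov intact replicate 3, at 52.9 CPM (next 39.1), and Lhpp in XX Ov GDX replicate 5, at 86.2 CPM (next 61.3). Lgr5 was low in XY Ov GDX replicate 1, at 8.14 CPM (next 10.4). Nkd1 was low in XX Ov intact replicate 4, at 5.37 CPM (next 6.65), and in XX Te GDX replicate 3, at 4.34 CPM (next 5.97).

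Effects that differed between groups were found in named genes outside the set. The castration effect minus the ovariectomy effect was 0.86 for Avpr1a (adjusted p = 0.0188) and -1.02 for Cyp2f2 (adjusted p = 0.000421) on the log2 scale. The XX minus XY difference changed from intact to GDX mice by -0.94 for Ccnd1 (adjusted p = 0.0313) and 0.67 for Cyp2f2 (adjusted p = 0.0494).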

How the results depend on the processing

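No paired analysis was possible because the labels give each mouse an identifier of its own and no replicate number; the numbers 1 to 6 used here only name the mice of a group, in accession order. Slc1a2 after ovariectomy, and Slc1a2, Oat and Lgr5 after castration, were called under all 10 other settings and without each of the 48 mice. For ovaries against testes in intact mice, 1 of 9 genes was called, but 0 with library totals, with only the compared groups and with limma-voom, and 2 with at least 10 counts in every mouse and with 1 surrogate variable. After ovariectomy 2 were called, but 8 with library totals, 5 with at least 10 counts in every mouse, 4 without the 3 farthest libraries, 4 with limma-voom and 1 with 1 surrogate variable; the setting without the 3 libraries, and limma-voom with group weights, were chosen after seeing the data. For XX against XY GDX mice 0 were called, but 1 with only the compared groups and with limma-voom. The cause was not tested. Leaving out each mouse gave 0 to 3 calls for ovaries against testes in intact mice, with 0 without XY Te intact replicate 5 and 3 without XX Ov intact replicate 4 or XY Ov intact replicate 1, and 2 without XX Ov GDX 5, XX Ov intact 3 or 5, XX Te GDX 3, XX Te intact 1 or 4, XY Ov intact 3 or 4, or XY Te intact 1, 3 or 6. It gave 2 to 5 after ovariectomy, with 5 without XX Ov intact replicate 3, 4 without XY Ov intact replicate 1, and 3 without XX Ov GDX 2, XX Ov intact 6, or XY Ov intact 2 or 6. It gave 0 to 1 for XX against XY over all mice and in GDX mice (in both, 1 without XX Ov intact replicate 4 or XY Te GDX replicate 6, and over all mice also without XX Te intact 3 or 6, XY Ov intact 2 or XY Te intact 5), 3 to 3 after castration, and 0 to 0 in the other comparisons. Of 23 correlated pairs over 48 mice, 7 passed in the 24 GDX mice alone, where r of Axin2 and Lgr5 was -0.060 in place of 0.34.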
